A study of Schizosaccharomyces pombe with 5 samples.

Results

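Fission yeast cells sampled 3.5 h after nitrogen was returned to a starved, resting culture were set against cells in vegetative growth, gene by gene. The value for each gene is the log2 ratio on the 3.5 h array minus the log2 ratio on the vegetative array, so a positive difference means a higher relative level at 3.5 h. Both ratios were taken over RNA of nitrogen-starved G0 cells, which was labelled on each array. It is unknown if both arrays received the same batch of this RNA. If the batches differed, each difference also holds the contrast between batches, which would not cancel. Genes were taken where platform annotation named 1 gene for a spot and where both arrays held a value, and repeated spots were averaged. Of 4797 genes with a value on at least 1 of the 5 arrays of the study, 4753 had both values. A further 26 genes had a value at 3.5 h and none in vegetative cells, and 12 had a value in vegetative cells and none at 3.5 h.

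All cells were Schizosaccharomyces pombe of the h minus strain L972, grown at 26 °C in the minimal medium EMM2. For the 3.5 h sample, cells were starved for 48 h in EMM2 without a nitrogen source, starting at 20000 cells per µl and reaching about 80000 cells per µl, and then received 4 volumes of fresh EMM2, which left 16000 cells per µl. The vegetative sample came from EMM2 cultures at 2000 cells per µl. Time since starvation, culture density and age of the medium thus all differed between the samples and cannot be told apart. Samples at 1, 2 and 6 h after nitrogen completed the study. Per the labels, Cy5 marked RNA of the sampled cells and Cy3 marked RNA of G0 cells, from 3 to 6 µg of polyadenylated RNA. Each condition had 1 array, and the submitters' design text says that the experiments were not repeated, so differences are between 2 arrays and could not be tested. A free-text field of both samples says 2 h; groups were taken from the title, source and treatment fields.

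When its nitrogen source runs out, fission yeast divides without further growth and arrests before DNA replication, and in the absence of a mating partner it enters the resting state G0. It breaks down protein and RNA for reuse, turns on mating and stress genes, and lowers the output of ribosomes. Return of nitrogen reactivates TOR kinase signalling, the cells rebuild their ribosomes and enlarge, and only then do they pass through S phase and mitosis back to the vegetative cycle. A vegetative culture contains cells at all cycle stages at once, most of them in G2.

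A gene was counted as different when its 2 log2 ratios differed by at least 1, which is 2-fold. This is a rule of size. By it 376 of 4753 genes (7.91%) were higher at 3.5 h than in vegetative cells and 386 (8.12%) were lower. The other 3991 genes (84.0%) lay within 2-fold. The median difference was 0.07, with quartiles of -0.39 and 0.51. The low side had the longer tail: 28 genes were at least 4-fold higher (0.589%) and 72 at least 4-fold lower (1.51%), and past 8-fold there was 1 higher gene and 22 lower genes. Across genes the ratios of the 2 arrays had a Pearson correlation of 0.81. This figure describes genes of 2 arrays that each have G0 RNA in the denominator, of the same batch or not, and genes are not independent replicates.

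**Figure D1:**
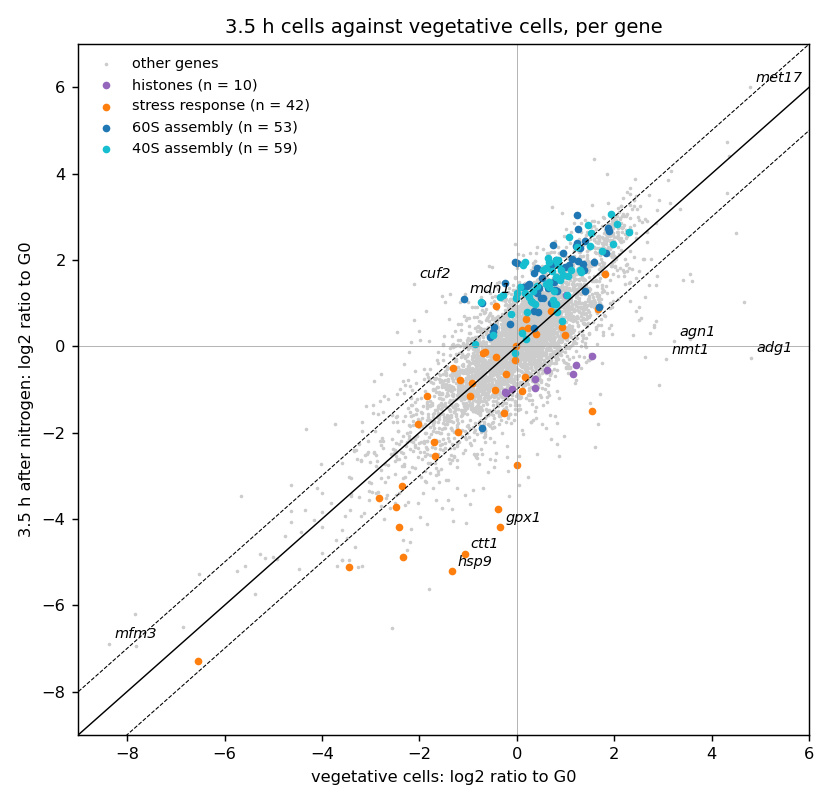
Each point is a gene, with its log2 ratio to G0 at 3.5 h on the vertical axis and in vegetative cells on the horizontal axis; the solid line marks equal ratios, the dashed lines a 2-fold difference, and colours mark members of 4 gene lists. Ribosome assembly genes lie on the 3.5 h side of the line, while histones and part of the stress genes lie on the vegetative side.

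Only spots printed more than once give an error within an array. The gene nuc1, for the largest subunit of RNA polymerase I, was printed in all 16 blocks and read 2.45 ± 0.21 at 3.5 h against 0.79 ± 0.20 in vegetative cells (SD over 16 spots), a difference of 1.65 ± 0.29. The kinase gene cdc2 read 0.88 ± 0.28 at 3.5 h against 0.26 ± 0.20 in vegetative cells, a difference of 0.62 ± 0.37. For the beta-tubulin gene nda3 the values were 0.94 ± 0.23 at 3.5 h and 1.00 ± 0.39 in vegetative cells, a difference of -0.06 ± 0.26. Each nuc1 spot was thus past 2-fold, with a lowest difference of 1.13, whereas the nda3 difference was smaller than its spread. Pooled over these 3 genes the SD of a difference was 0.31, and it was 0.39 over 12 positions without a gene name that every block holds. The means of those 12 positions lay between 0.18 and 0.45, all above the median gene. A 2-fold difference is 3.22 of the first SDs and 2.53 of the second, but most genes had 1 spot, and these SDs hold nothing of the variation between cultures.

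The called genes can be placed against G0. Of the 376 higher genes, 215 were at least 2-fold above G0 at 3.5 h, and 145 of these were within 2-fold of G0 in vegetative cells. Another 62 were within 2-fold of G0 at 3.5 h and at least 2-fold below it in vegetative cells. Of the 386 lower genes, 220 were at least 2-fold below G0 at 3.5 h, and 148 of these were within 2-fold of G0 in vegetative cells. A further 82 were within 2-fold of G0 at 3.5 h and at least 2-fold above it in vegetative cells. The commonest position of called genes in each direction was thus a displacement from G0 at 3.5 h with a vegetative level near that of G0. These positions come from the same 2 values that chose the genes. Over all genes the 3.5 h ratios also spread more widely, with a median absolute deviation of 0.71 against 0.61 in vegetative cells. The other arrays are given for description. The higher genes had median ratios of 1.30, 1.30, 1.17 and 0.39 at 1, 2, 3.5 and 6 h, against -0.15 in vegetative cells. The lower genes had medians of -0.93, -1.28, -1.27 and -0.42 at 1, 2, 3.5 and 6 h, against 0.25 in vegetative cells. The sets were chosen by the 3.5 h and vegetative values, so nothing is read from the place of the other arrays between them. The 1 h and 2 h values carry 9 decimals and the others 3, so they may have been processed apart.

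Among the 52 gene lists, those of ribosome production made up the broadest group on the high side. The lists leave out many called genes: 198 of the 376 higher genes and 244 of the 386 lower genes were in no list. Of 59 measured genes for the small subunit processome and 40S assembly, the machinery that trims and folds the 18S part of the ribosomal RNA precursor, 23 were at least 2-fold higher at 3.5 h and 0 were lower. The median difference was 0.83, against 0.07 over all genes, and 55 of the 59 were above 0. The early processing factor rrp5 had ratios of 2.75, 1.74, 1.96 and 0.55 at 1, 2, 3.5 and 6 h, against 0.16 in vegetative cells. The scaffold gene utp20 was at 1.02 at 3.5 h against -0.74 in vegetative cells, a difference of 1.76. The nucleolar gene esf2 was at 1.88 at 3.5 h against 0.13 in vegetative cells. The genes rrp5, utp20 and esf2 all lie in the longest decile of genes by length. At the other end of the list, utp5 was at 0.58 at 3.5 h against 0.93 in vegetative cells, and utp18 was at -0.16 at 3.5 h against -0.04 in vegetative cells. For fib1, the fibrillarin that methylates ribosomal RNA, the ratios were 2.64 at 3.5 h against 2.31 in vegetative cells, so a high ratio at 3.5 h did not always go with a large difference.

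Factors of 60S assembly behaved alike, with 20 of 53 higher, 1 lower and a median difference of 0.85. The gene mdn1, for the giant AAA ATPase that strips factors from the maturing 60S particle, had ratios of 2.27, 2.09, 1.10 and -0.25 at 1, 2, 3.5 and 6 h, against -1.09 in vegetative cells. Its difference of 2.19 was the largest of the list, and mdn1 too lies in the longest decile of genes by length. The RNA helicase gene dbp7 was at 1.94 at 3.5 h against -0.03 in vegetative cells. For dbp3, another helicase of this pathway, the ratios were 3.03 at 3.5 h against 1.24 in vegetative cells. The gene rrp15 was at 1.92 at 3.5 h against 0.00 in vegetative cells. These 4 genes had the largest differences of the list, from different vegetative levels. The exception was the helicase gene has1, at -1.89 at 3.5 h against -0.71 in vegetative cells, which was below G0 on all 5 arrays. Among 13 genes for H/ACA particles and other enzymes that modify ribosomal RNA, 4 were higher and 0 lower, led by the acetyltransferase gene nat10 with a difference of 1.45.

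RNA polymerases I and III, which transcribe ribosomal RNA, 5S RNA and tRNA, had 8 of 33 genes higher, 2 lower and a median difference of 0.40, which was 0.24 after centring within printed blocks. The largest subunit of polymerase III, rpc1, was at 1.13 at 3.5 h against -0.73 in vegetative cells, and its gene lies in the longest decile of genes by length. The second subunit of polymerase I, rpa2, was at 2.64 at 3.5 h against 1.31 in vegetative cells. Of the 2 lower genes, maf1, for the repressor of polymerase III, had ratios of -2.57, -2.87, -2.51 and -1.32 at 1, 2, 3.5 and 6 h, against -0.87 in vegetative cells. The polymerase III subunit gene rpc1 and the repressor gene maf1 thus had differences of opposite sign.

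Ribosomal protein genes differed less each but more evenly. Of 77 genes of the large cytosolic subunit 12 were at least 2-fold higher and 1 was lower, yet 76 of 77 were above 0, and the median difference was 0.79. Of 43 genes of the small subunit 8 were higher, 0 lower, 42 above 0, and the median difference was 0.76. The large-subunit list had medians of 2.19, 2.26, 2.58 and 2.19 at 1, 2, 3.5 and 6 h, against 1.88 in vegetative cells, while the medians of the 60S assembly list were 1.57 at 3.5 h against 0.71 in vegetative cells. The highest member, rpl2501, was at 2.68 at 3.5 h against 1.24 in vegetative cells, and rpl35 was at 3.58 at 3.5 h against 2.26 in vegetative cells. Many ribosomal proteins are encoded by near-identical gene pairs whose transcripts can bind the same cDNA spot, so values of single paralogs are uncertain. When each array was centred and scaled to the same median absolute deviation, the medians of these lists came to 0.42 and 0.39, in the order large and small. Of the 77 large-subunit genes, 57 lie in the shortest decile of genes by length. The 46 genes of mitochondrial ribosomal proteins had a median slightly below 0, at -0.15, with 0 higher and 3 lower. Their lower share of 6.52% was below the 8.12% over all genes.

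Translation factors followed the cytosolic ribosome with 7 of 43 higher, 1 lower and a median difference of 0.48, which was 0.23 after both arrays were scaled to 1 median absolute deviation. The termination factor gene sup35 was at 1.59 at 3.5 h against -0.04 in vegetative cells. The elongation factor 3 gene tef3 was at 1.43 at 3.5 h against 0.22 in vegetative cells. The only lower member was tif452, for a variant of the cap-binding protein eIF4E, at -0.35 at 3.5 h against 0.67 in vegetative cells.

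**Figure D2:**
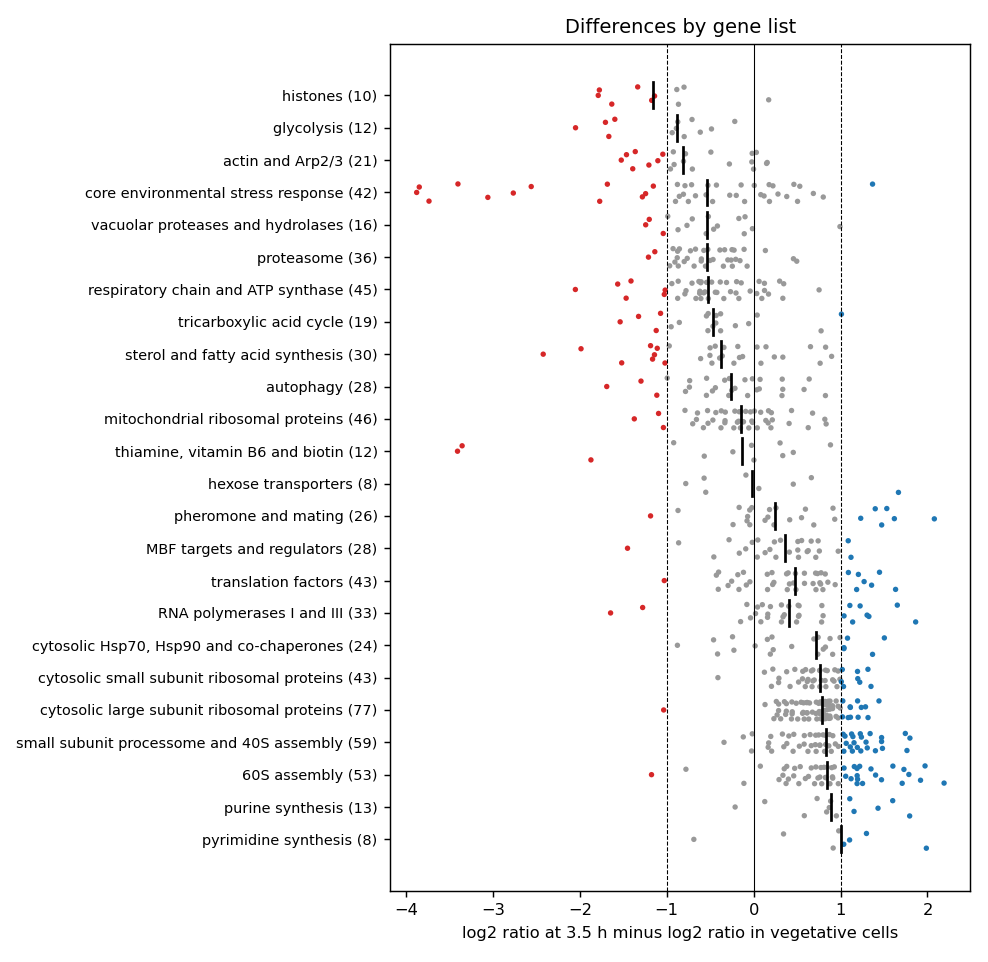
Points are genes, placed by the log2 ratio at 3.5 h minus that in vegetative cells, in 24 of the 52 gene lists, with the number of measured genes after each name. The black tick is the list median, blue points are at least 2-fold higher at 3.5 h and red points at least 2-fold lower, and the list medians run from -1.16 for histones to 1.01 for pyrimidine synthesis.

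Length of the gene moved with the difference, and this touches the lists above. In the longest decile of genes, 3584 to 15232 bases, 88 of 474 genes (18.6%) were higher and 16 lower, with a median difference of 0.38. In the other deciles the higher share lay between 3.81% and 9.70%. Median ratios in the longest decile were 0.03 and -0.16 at 3.5 and 6 h, against -0.36 in vegetative cells, so it was the vegetative array on which long genes stood low. The dynein heavy chain gene dhc1 was at 0.13 at 3.5 h against -1.81 in vegetative cells, and tra2, for a large subunit of a histone acetyltransferase complex, was at 0.62 at 3.5 h against -1.40 in vegetative cells. The shortest decile, 129 to 867 bases, had a median difference of 0.27. Among the ribosome assembly and polymerase I and III genes outside the longest decile, 43 of 144 were higher (29.9%), with a median of 0.75. In the longest decile without them, 76 of 461 genes were higher (16.5%), with a median of 0.35. After subtraction of the median of genes of like length, 302 genes were higher and 434 lower over all genes. The same subtraction took the list medians to 0.79 for the small subunit processome, 0.82 for 60S assembly, 0.55 for large-subunit and 0.51 for small-subunit ribosomal proteins, and 0.07 for kinetochore and spindle genes, whose median was 0.18 before it.

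**Figure D3:**
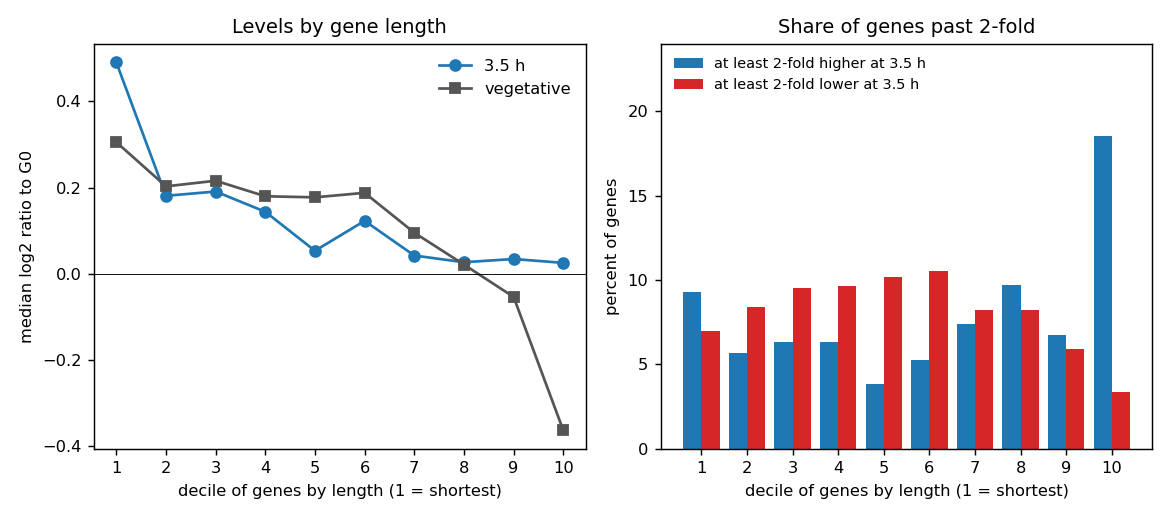
The left panel gives the median log2 ratio to G0 at 3.5 h and in vegetative cells for each decile of genes by length, and the right panel the percent of genes at least 2-fold higher or lower at 3.5 h. In the longest decile the vegetative median is -0.36 against 0.03 at 3.5 h, and 18.6% of genes are higher.

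Nucleotide synthesis genes leaned to the high side at 3.5 h. Of 13 measured purine synthesis genes 5 were higher and 0 lower, with a median of 0.89. The gene ade9, whose product supplies activated one-carbon units, had ratios of 2.40, 2.10, 1.24 and 0.71 at 1, 2, 3.5 and 6 h, against -0.55 in vegetative cells. The gene ade3, for formylglycinamidine synthase, was at 1.98 at 3.5 h against 0.38 in vegetative cells, whereas ade7 was at 0.86 at 3.5 h against 1.07 in vegetative cells. Of 8 pyrimidine genes 4 were higher and 0 lower, with a median of 1.01. The gene ura1, for the enzyme that opens pyrimidine synthesis, had ratios of 3.44, 2.99, 2.11 and 1.31 at 1, 2, 3.5 and 6 h, against 0.12 in vegetative cells. The CTP synthase gene cts1 was at 1.45 at 3.5 h against 0.15 in vegetative cells, and ura2, for dihydroorotase, was at 0.34 at 3.5 h against 1.03 in vegetative cells. The genes ade9, ade3 and ura1 all lie in the longest decile of genes. The salvage gene dea2, for adenine deaminase, had ratios of 3.94, 4.07, 3.24 and 2.38 at 1, 2, 3.5 and 6 h, against 0.72 in vegetative cells.

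Within sulfur metabolism 5 of 15 genes for sulfate assimilation and methionine synthesis were higher and 0 lower, with a median of 0.26. The higher genes were met14, for the kinase of adenylyl sulfate, with a difference of 1.49, met10 and sir1, for the subunits of sulfite reductase, with 2.16 and 1.49, met17, which incorporates sulfide, with 1.21, and met6, for homoserine acetyltransferase, with 1.02. Of these 5, sir1 lies in the longest decile of genes. The gene met1 was outside the list and was at 4.34 at 3.5 h against 1.58 in vegetative cells. Its budding yeast namesake makes the sirohaem of sulfite reductase. Later steps stood differently: the methionine synthase gene met26 was at 2.09 at 3.5 h against 2.00 in vegetative cells, and sam1, for S-adenosylmethionine synthetase, was at 3.55 at 3.5 h against 4.31 in vegetative cells. The ratio of met17 was the highest of the 3.5 h array, at 5.99, and the next to highest of the vegetative array, at 4.78.

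Amino acid synthesis had 7 of 54 genes higher, 2 lower and a median of 0.43, which was 0.14 after scaling of both arrays. The glutamate synthase gene glt1, which enters ammonium into glutamate, was at 1.49 at 3.5 h against -0.36 in vegetative cells. The gene aro1, for the multi-step enzyme of aromatic amino acid synthesis, was at 1.33 at 3.5 h against -0.39 in vegetative cells. Both glt1 and aro1 lie in the longest decile of genes. The lower members were aro7, for chorismate mutase, with a difference of -1.13, and arg7, with -1.05. Among 16 ammonium and amino acid transporters 5 were higher and 1 lower. The amino acid transporter gene aat1 had ratios of 5.86, 6.48, 4.00 and 2.30 at 1, 2, 3.5 and 6 h, against 1.84 in vegetative cells. The ammonium transporter genes parted: amt1 was at -0.33 at 3.5 h against -1.63 in vegetative cells, while amt3 was at -1.12 at 3.5 h against 0.04 in vegetative cells.

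Genes induced by nitrogen starvation were below G0 on both arrays, and most were less far below it at 3.5 h. Of 21 such genes 4 were higher and 2 lower, with medians of -1.21 at 3.5 h against -1.73 in vegetative cells. The genes isp4, amt1 and per1 are counted both here and among the transporters above, so the 2 lists are not separate results. The oligopeptide transporter gene isp4 was at -1.79 at 3.5 h against -3.74 in vegetative cells, and isp7 at -1.39 at 3.5 h against -3.09 in vegetative cells. For isp6, a vacuolar serine protease needed for mating and sporulation, the ratios were -4.48 at 3.5 h against -3.72 in vegetative cells. Vacuolar proteases and other hydrolases had 0 of 16 genes higher and 3 lower, with 15 of 16 below 0 and a median of -0.53, which was -0.24 after scaling of both arrays. The autophagy list had 0 of 28 genes higher and 3 lower (10.7%, against 8.12% over all genes). Its median was -0.27, which was -0.11 after scaling. The gene atg101, for a part of the kinase complex that starts autophagy, was at -2.50 at 3.5 h against -0.82 in vegetative cells. Of 36 proteasome genes 2 were lower and 0 higher, but 33 were below 0, with medians of -0.27 at 3.5 h against 0.28 in vegetative cells.

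The stress response gave many of the largest negative differences. Of 42 measured genes of the core environmental stress response 12 were lower and 1 higher, with medians of -1.02 at 3.5 h against -0.44 in vegetative cells. The gene hsp9, for a small stress protein, had ratios of -1.26, -4.90, -5.21 and -2.83 at 1, 2, 3.5 and 6 h, against -1.33 in vegetative cells. The glutathione peroxidase gene gpx1 had ratios of -2.29, -5.64, -4.19 and -1.32 at 1, 2, 3.5 and 6 h, against -0.34 in vegetative cells. The catalase gene ctt1 had ratios of -1.44, -5.41, -4.80 and -2.77 at 1, 2, 3.5 and 6 h, against -1.07 in vegetative cells. In each of these the 2 h and 3.5 h values were the lowest of the 5 arrays, and the vegetative level was 13.3 to 14.7 times that at 3.5 h. The glycerol phosphate dehydrogenase gene gpd1, which makes the osmolyte glycerol, was at -2.76 at 3.5 h against 0.01 in vegetative cells. The stress-induced gene rds1 was at -1.51 at 3.5 h against 1.55 in vegetative cells, which puts the samples on opposite sides of G0. The metallothionein gene zym1 was at -7.30 at 3.5 h against -6.55 in vegetative cells, so a very low ratio was shared there. The bZIP factor gene atf1, which drives many of these genes, was at -2.54 at 3.5 h against -1.68 in vegetative cells.

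The only gene of the core stress response list at least 2-fold higher was hsp104, and other cytosolic chaperones stood with it. The gene hsp104 encodes the disaggregase of protein aggregates. It had ratios of -2.58, -2.58, 0.94 and -0.17 at 1, 2, 3.5 and 6 h, against -0.43 in vegetative cells. Of 24 genes for Hsp70, Hsp90 and their partners 5 were higher and 0 lower, with a median difference of 0.72, which was 0.46 after scaling of both arrays. The Hsp70 gene ssa1 was at -2.87, -3.15, 1.68 and 0.83 at 1, 2, 3.5 and 6 h, against 0.60 in vegetative cells. The Hsp90 gene hsp90 was at 2.47 at 3.5 h against 1.59 in vegetative cells, within 2-fold. The exchange factor gene fes1 was at 2.15 at 3.5 h against 0.65 in vegetative cells, and the mitochondrial disaggregase gene hsp78 was at 1.82 at 3.5 h against -0.01 in vegetative cells. Chaperone genes had their highest ratio of the 5 arrays at 3.5 h in each of hsp104, ssa1, hsp90, fes1 and hsp78. The chaperonin TRiC and prefoldin had 0 of 14 genes past 2-fold and a median of 0.15.

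Glycolysis was lower at 3.5 h as a list: 4 of 12 genes were lower, 0 higher, and 12 of 12 were below 0, with medians of -0.56 at 3.5 h against 0.31 in vegetative cells. The phosphoglycerate kinase gene pgk1 had ratios of -5.38, -5.15, -1.75 and -0.38 at 1, 2, 3.5 and 6 h, against 0.30 in vegetative cells. Of the glyceraldehyde phosphate dehydrogenase genes, tdh1 was at -1.52 at 3.5 h against 0.19 in vegetative cells, and gpd3 was at -1.35 at 3.5 h against 0.32 in vegetative cells. The hexokinase gene hxk1 was at -0.50 at 3.5 h against 1.09 in vegetative cells, and pgi1, the smallest difference of the list, was at -0.41 at 3.5 h against -0.20 in vegetative cells. The alcohol dehydrogenase genes parted, with adh1 at -0.63 at 3.5 h against 1.05 in vegetative cells and adh4 at 1.93 at 3.5 h against 0.13 in vegetative cells. Hexose transporters had 1 of 8 genes higher, ght7, with a difference of 1.67. The high-affinity glucose transporter gene ght5 was at -0.99 at 3.5 h against -0.90 in vegetative cells. The glucose-repressed genes fbp1, for fructose bisphosphatase, and inv1, for invertase, were within 2-fold, with differences of 0.68 and 0.25. In the glucose-repressed list 0 of 19 genes were higher and 3 were lower, among them the malic enzyme gene mae2 with ratios of -2.26 at 3.5 h against 0.82 in vegetative cells.

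Mitochondrial energy genes leaned the same way. The tricarboxylic acid cycle had 4 of 19 genes lower and 1 higher, with a median of -0.47, and the respiratory chain and ATP synthase had 6 of 45 lower and 0 higher, with a median of -0.52. The succinate dehydrogenase gene sdh2 was at -1.24 at 3.5 h against 0.30 in vegetative cells. The gene coq7, of ubiquinone synthesis, was at -1.66 at 3.5 h against 0.39 in vegetative cells. Sterol and fatty acid synthesis had 8 of 30 lower and 0 higher, with a median of -0.38. The C-5 sterol desaturase gene erg31 was at 0.31 at 3.5 h against 2.73 in vegetative cells, and the squalene epoxidase gene erg1 was at -0.78 at 3.5 h against 1.20 in vegetative cells. Its paralog erg32 was at 0.34 at 3.5 h against -0.48 in vegetative cells, so the pair of desaturase genes did not stand alike. The fatty acid synthase genes differed little or the other way, with fas2 at -0.18 and fas1 at 0.90.

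**Figure D4:**
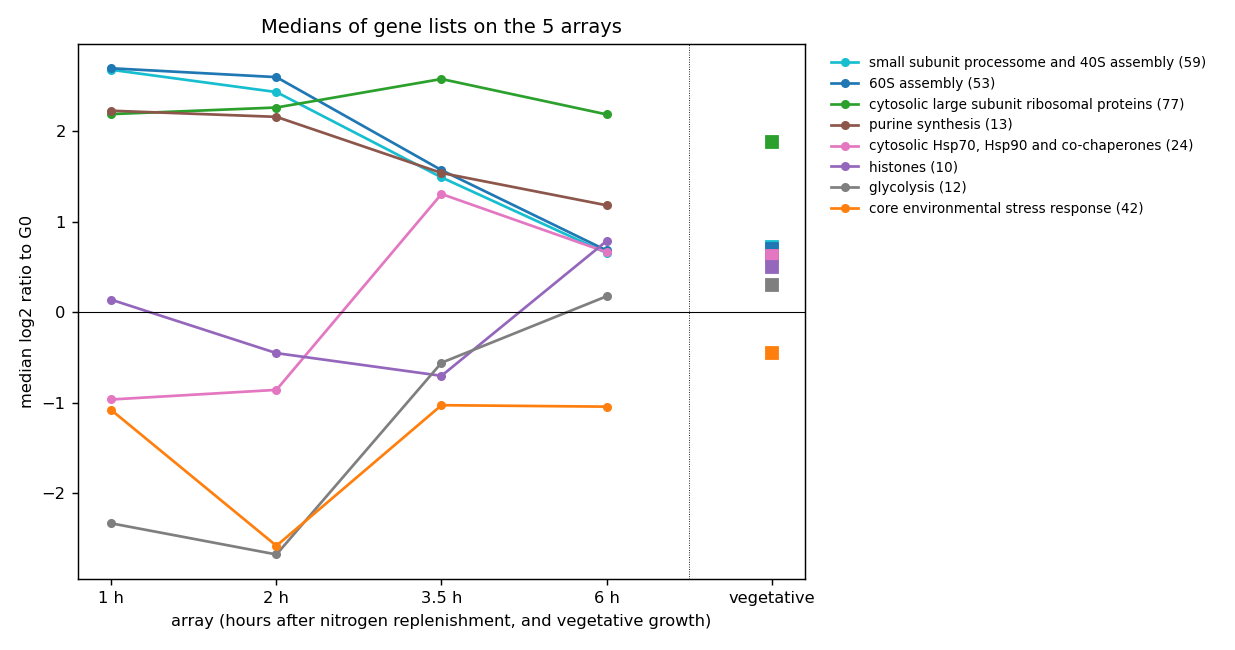
Lines join the median log2 ratio to G0 of 8 gene lists at 1, 2, 3.5 and 6 h after nitrogen, and squares give the median of the same genes in vegetative cells. Medians of ribosome assembly lists are near 1.5 at 3.5 h and 0.7 in vegetative cells, and cytosolic chaperones peak at 3.5 h at 1.31.

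Among genes for vitamins and metals a few members differed strongly while their lists did not. The thiamine synthesis gene nmt1 had ratios of -0.69, -1.87, -0.30 and 3.80 at 1, 2, 3.5 and 6 h, against 3.06 in vegetative cells, a difference of -3.35. Another gene of that pathway, thi2, had ratios of -0.77, -0.47, -2.54 and 0.34 at 1, 2, 3.5 and 6 h, against 0.87 in vegetative cells. The biotin transporter gene vht1 was at 2.62 at 3.5 h against 4.50 in vegetative cells. These 3 were the only lower genes among 12, of which 0 were higher, and the list median was -0.13. For iron, the ferric reductase gene frp1 was at 0.57 at 3.5 h against 2.85 in vegetative cells and sib3 at -2.50 at 3.5 h against 0.41 in vegetative cells. The siderophore transporter gene str1 stood on the other side, at 3.48 at 3.5 h against 2.45 in vegetative cells. The zinc transporter gene zrt1 was at 1.54 at 3.5 h against 3.42 in vegetative cells.

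Cell cycle genes differed in single members more than as lists. The MBF factor switches on replication genes at the G1/S step, and its best known targets had these values. The licensing factor gene cdc18 had ratios of 0.10, 0.24, 2.67 and 1.85 at 1, 2, 3.5 and 6 h, against 1.55 in vegetative cells. The ribonucleotide reductase gene cdc22 was at 1.60 at 3.5 h against 0.85 in vegetative cells, and mik1, for an inhibitor of Cdc2, was at 1.62 at 3.5 h against 1.00 in vegetative cells. The S-phase cyclin gene cig2 was at 2.84 at 3.5 h against 2.86 in vegetative cells. The co-repressor gene nrm1, which turns MBF off after G1, went the other way, at 0.49 at 3.5 h against 1.94 in vegetative cells. Of 28 MBF targets and regulators 2 were higher and 1 lower, with a median of 0.36, and of 48 replication genes 4 were higher and 1 lower, with a median of 0.22. These shares of higher genes are near the 7.91% over all genes, and 7 of the 28 and 16 of the 48 were below 0. With each array centred within its printed blocks the medians were 0.19 and 0.09. The DNA polymerase epsilon gene cdc20 and the DNA ligase gene cdc17 were 2 of those higher, with differences of 1.32 and 1.23.

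Most histone genes, which are transcribed in S phase, were lower at 3.5 h. Of 10 histone genes 6 were lower and 0 higher, with medians of -0.70 at 3.5 h against 0.50 in vegetative cells. The H2A gene hta2 had ratios of -1.16, -1.73, -0.63 and 1.27 at 1, 2, 3.5 and 6 h, against 1.16 in vegetative cells. The H2B gene htb1 had ratios of -0.18, -1.02, -0.23 and 1.51 at 1, 2, 3.5 and 6 h, against 1.54 in vegetative cells. The H4 genes hhf1, hhf2 and hhf3 had differences of -1.33, -1.14 and -1.17. The H3 genes hht1, hht2 and hht3 were within 2-fold, with differences of -0.88, -0.80 and -0.86. Copies of H3 and of H4 are near identical, so these spots may report summed transcripts. The gene pht1, for the variant H2A.Z, was at 1.18 at 3.5 h against 1.00 in vegetative cells. At 6 h hta2 and htb1 were within 0.2 of their vegetative ratios.

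Single genes gave the sharpest differences. The surface glycoprotein gene adg1 had ratios of -0.27, -0.64, -0.27 and -0.82 at 1, 2, 3.5 and 6 h, against 4.80 in vegetative cells. This was the largest difference of all 4753 genes, 33.5-fold lower at 3.5 h. The alpha-glucanase gene agn1, whose product opens the outer wall at the septum, had ratios of 2.15, 1.35, 0.12 and -0.01 at 1, 2, 3.5 and 6 h, against 3.22 in vegetative cells. The endo-beta-glucanase gene eng1, which dissolves the primary septum, had ratios of 0.87, 1.55, 0.49 and 0.18 at 1, 2, 3.5 and 6 h, against 2.82 in vegetative cells. The vegetative array was thus the highest of the 5 for each of adg1, agn1 and eng1, and the 6 h array the lowest.

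Mitotic genes that forkhead and MADS-box factors control leaned to the low side as a list, with few past 2-fold. Of 27 such genes 3 were lower and 1 higher, 18 were below 0, and the median was -0.38. That median was -0.31 after scaling of both arrays, -0.51 after block centring and -0.55 with the correction for gene length. The APC activator gene slp1 was at 1.42 at 3.5 h against 2.70 in vegetative cells, the polo kinase gene plo1 was at -0.68 at 3.5 h against 0.45 in vegetative cells, and fkh2 was at -0.30 at 3.5 h against 0.85 in vegetative cells. The cyclin gene cdc13 was at 0.51 at 3.5 h against -0.33 in vegetative cells, and the mitotic phosphatase gene cdc25 was at -1.51 at 3.5 h against -0.60 in vegetative cells. For rum1, the Cdc2 inhibitor of G1, the ratios were -1.18 at 3.5 h against -0.61 in vegetative cells. Among 35 genes of cytokinesis and the septation network 3 were higher and 2 lower, with a median of -0.02. The 3 higher ones, for3, bgs4 and bgs1, lie in the longest decile of genes. Kinetochore and spindle genes had 4 of 56 higher and 0 lower, with a median of 0.18. The higher shares of the cytokinesis and kinetochore lists, 8.57% and 7.14%, are near the 7.91% over all genes.

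A minority of actin genes passed 2-fold, all of them on the low side. Of 21 genes for actin, the Arp2/3 complex and their regulators 7 were lower and 0 higher, with medians of -0.29 at 3.5 h against 0.09 in vegetative cells and a median difference of -0.81. The fimbrin gene fim1 was at -1.75 at 3.5 h against -0.23 in vegetative cells, and the coronin gene crn1 was at -0.87 at 3.5 h against 0.59 in vegetative cells. The actin gene act1 itself had ratios of 0.34, 0.43, -0.07 and 0.82 at 1, 2, 3.5 and 6 h, against 0.84 in vegetative cells. Tubulin and its folding factors had 0 of 16 genes past 2-fold, and the median was -0.02.

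**Figure D5:**
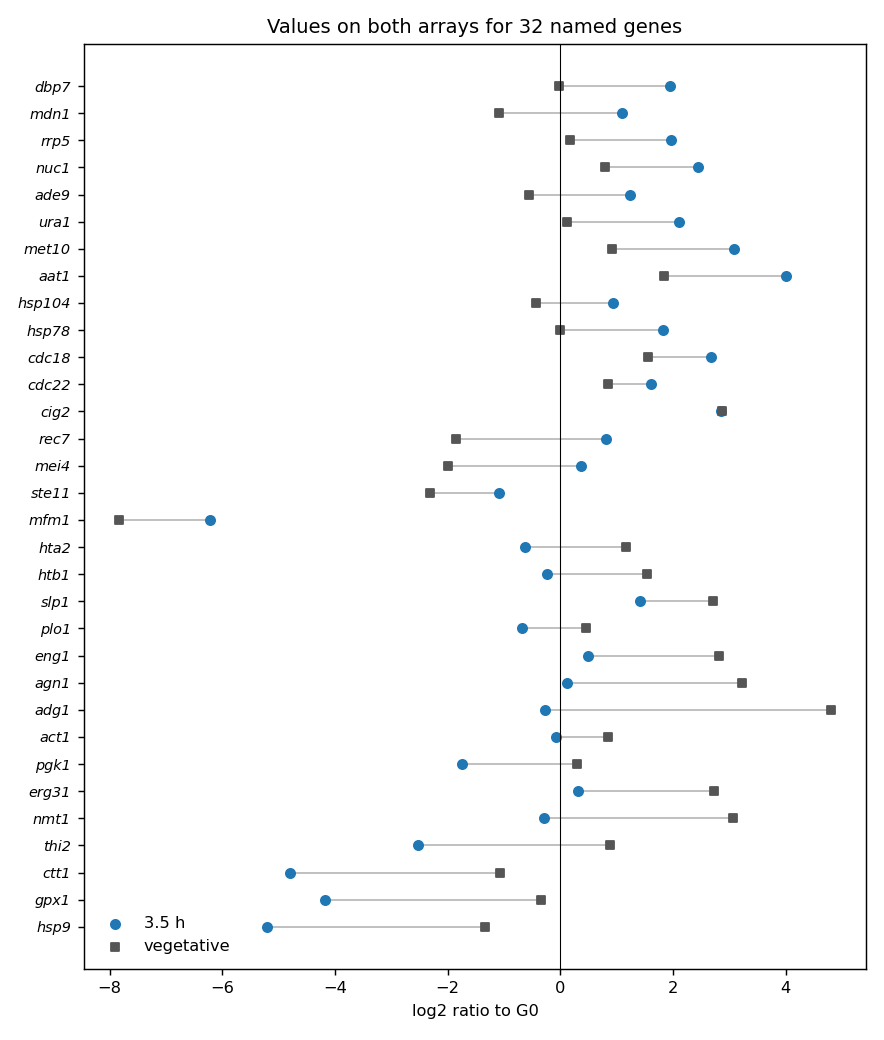
For 32 named genes the circle gives the log2 ratio to G0 at 3.5 h and the square that in vegetative cells. The circle lies far to the right of the square for mdn1 and rec7, the markers nearly coincide for cig2, and the circle lies far to the left for adg1, nmt1 and hsp9.

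The pheromone and mating list was below G0 in both samples, and some of its genes were less far below it at 3.5 h. Of 26 pheromone and mating genes 6 were higher and 1 lower, with medians of -1.21 at 3.5 h against -2.10 in vegetative cells. The median difference per gene was smaller, at 0.25, with 17 genes above 0 and 9 below 0. The gene ste11, for the master regulator of mating, had ratios of -1.47, -1.37, -1.08 and -0.55 at 1, 2, 3.5 and 6 h, against -2.31 in vegetative cells. The M-factor pheromone genes mfm1 and mfm3 were at -6.21 and -6.89 at 3.5 h, against -7.83 and -8.36 in vegetative cells, and their coding sequences are alike enough that they may share signal. The exchange factor gene ste6, which activates Ras1, was at -0.13 at 3.5 h against -2.21 in vegetative cells. The meiosis regulator gene mei2 was within 2-fold, at -2.25 at 3.5 h against -2.48 in vegetative cells. The only lower member was byr1, for the MAP kinase kinase of the pathway, at -1.45 at 3.5 h against -0.26 in vegetative cells.

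A few meiotic genes had some of the largest positive differences. The highest of all was cuf2, for a transcription factor of meiosis, with ratios of 0.02, 0.73, 1.45 and -0.22 at 1, 2, 3.5 and 6 h, against -2.12 in vegetative cells, 11.9-fold higher at 3.5 h. The recombination gene rec7 was at 0.82 at 3.5 h against -1.86 in vegetative cells, and mei4, for the forkhead factor of meiosis, was at 0.36 at 3.5 h against -2.00 in vegetative cells. In each of these the vegetative array was the lowest of the 5. The 28 genes of spore formation and meiotic recombination had 3 higher members, which were rec7, mei4 and rec25, 2 lower members and a median of 0.52. Of 115 genes named mug or meu for their induction in meiosis 10 were higher and 8 lower, with a median of 0.15, which is close to the 7.91% and 8.12% over all genes.

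Signalling genes for nutrients and stress parted in both directions. Of 34 genes of the TOR, PKA and related pathways 4 were higher (11.8%) and 6 lower (17.6%), with a median of -0.21. Over all genes these shares were 7.91% and 8.12%. The gene cgs1, for the inhibitory subunit of protein kinase A, had ratios of -1.44, -4.05, -3.28 and -1.61 at 1, 2, 3.5 and 6 h, against -0.69 in vegetative cells. The G-protein beta subunit gene git5, of the glucose-sensing pathway, was at -3.56 at 3.5 h against -1.40 in vegetative cells, and ssp2, for the AMP-activated kinase, was at -1.57 at 3.5 h against -0.15 in vegetative cells. On the other side, wis1, for the MAP kinase kinase of the stress pathway, was at 0.78 at 3.5 h against -0.67 in vegetative cells. The kinase gene tor2, needed for growth, was at 0.13 at 3.5 h against -1.01 in vegetative cells, while tor1, needed for survival of starvation, was at -0.32 at 3.5 h against -0.40 in vegetative cells. Both tor genes lie in the longest decile. Membrane traffic genes had 10 of 102 lower (9.80%) and 4 higher (3.92%), with a median of -0.18. Their lower share is near the 8.12% over all genes. The largest difference of that list was in ypt7, for the GTPase of vacuole fusion, at -2.32 at 3.5 h against -0.21 in vegetative cells.

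Further lists are given by their counts. Over all genes 7.91% were higher and 8.12% lower, and nothing is read from counts near those shares. Splicing had 2 of 64 higher and 3 lower, RNA polymerase II and Mediator 1 of 37 higher and 1 lower, and the anaphase promoting complex 0 of 12 higher and 1 lower, slp1. DNA repair and checkpoint genes had 9 of 53 higher, a larger share than the 7.91% over all genes, and 0 lower, with a median of 0.21, among them rad54, of homologous recombination, at 0.04 at 3.5 h against -1.53 in vegetative cells, and the helicase gene rqh1 at 1.17 at 3.5 h against -0.45 in vegetative cells. Of these 53 repair genes 12 lie in the longest decile. Cell wall genes had 4 of 34 higher and 4 lower, with the exo-glucanase gene exg3 at -4.09 at 3.5 h against -1.04 in vegetative cells and the Rho1 activator gene rgf1 at 1.03 at 3.5 h against -1.01 in vegetative cells. Phosphate genes had 1 of 12 lower (8.33%, near the share over all genes), plb4, for a phospholipase, with a difference of -2.69. Copper and zinc genes had 1 of 13 higher and 3 lower, iron genes 2 of 13 higher and 3 lower, mitochondrial and endoplasmic reticulum chaperones 2 of 20 higher, and fermentation genes 2 of 10 higher and 1 lower.

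Fixed markers of cell state put these results side by side. Markers of G0 and mating had a median difference of 0.39 over 8 measured genes, with 3 higher and 0 lower. They did not stand alike. The 3 higher ones were the mating genes mfm1, mfm3 and ste11, while isp6 and rum1 had negative differences within 2-fold. Markers of G1/S had a median of 0.62 over 5 genes, with 1 higher. Markers of S phase had a median of -1.17 over 9 genes, with 6 lower, and those of mitosis and septation a median of -2.57 over 6 genes, with 6 lower. These are few genes each, and the larger lists of cytokinesis and of forkhead targets, with medians of -0.02 and -0.38, did not share the size of the last difference. These are RNA levels of whole cultures, in which fewer cells expressing a gene and less RNA per cell cannot be told apart.

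Genome position showed 1 departure. Chromosomes I, II and III had median differences of 0.08, 0.04 and 0.10. Among the 124 measured genes that are among the 40 outermost annotated coding genes at either end of chromosome I or II, 20 were lower (16.1%) and 7 higher, against 366 lower of 4629 elsewhere (7.91%). Their median difference was 0.05. The longest rows of neighbouring genes called in the same direction held 4 genes, for example abc1, wos2, vps24 and SPAC9E9.15 on chromosome I, all higher, an example chosen after its values were seen. Spots that named no gene and had both values numbered 293, of which 22 were higher and 10 lower.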

How the data were processed

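Values are the log2 ratios per spot that the authors deposited in the series' value table, Cy5 over Cy3, which are sampled cells over G0 cells per the labels. Base 2 is an assumption. For the logarithm's base, and for image analysis, background treatment and normalization, the methods were "not given in the sources used here". Without intensities, dim spots could not be filtered. Precision is limited by the number of arrays, 1 per condition.

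Each array had 5184 spots in 16 blocks of 324, and 4 rows of the authors' averages were left out. Platform annotation, which can be old, named 1 gene for 4865 spots, several for 22 and none for 297, and 4839 of the 4865 were matched by Entrez identifier to genes of RefSeq assembly ASM294v3, whose table gave symbols, gene lengths and gene order, and no coordinates are printed. Differences, medians and counts were computed with Python 3.11.15, numpy 2.4.6 and pandas 2.3.3, with code tested on simulated data. A gene was called at a difference of 1 or more, with no test. The authors' average of nda3 leaves out 1 spot at 1 h and 2 h. All 16 were used here, and without that spot the difference was -0.11 ± 0.20 (SD over 15 spots).

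The comparison, the 52 gene lists and the markers were chosen with earlier results of these data known. Entries found to name a different gene than intended (for example rrp1 and lsg1, which are not ribosome assembly factors in this species) were dropped after their values were seen, and 1 list is not reported here. Named genes were the 40 highest and 40 lowest differences, the 5 largest of each list, markers and members that show a list's spread. Alternatives were array centring and scaling, block centring, other treatment of repeated spots, stricter thresholds, other gene sets and a correction for gene length.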

Additional observations from a re-analysis of the deposited data

Results flagged for a closer look

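In 13 genes the 3.5 h and vegetative samples lay at least 2-fold on opposite sides of G0. Each rests on 1 array per condition, and the difference was not tested. Above G0 at 3.5 h and below it in vegetative cells were 8 genes. Their differences on the log2 scale were 3.57 for the meiotic factor gene cuf2, 2.70 for rrp1, which encodes a DNA translocase, 2.57 for SPAC11D3.14c, 2.49 for ppr3, 2.29 for dgc1, 2.19 for mdn1, 2.18 for the peroxisomal import receptor gene pex5 and 2.04 for rgf1. Of these, SPAC11D3.14c, ppr3, mdn1 and rgf1 lie in the longest decile of genes. Below G0 at 3.5 h and above it in vegetative cells were 5 genes. Their differences were -3.92 for cbm1, -3.46 for SPAC27D7.09c, -3.06 for rds1, -2.81 for adg3 and -2.80 for SPCC306.11.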

How the results depend on the processing

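List medians shifted by -0.37 to 0.34 when both arrays were scaled to 1 median absolute deviation, by -0.27 to 0.09 with the length correction and by -0.22 to 0.08 with block centring, over 52 lists, and the sign changed in 3, 2 and 2 of them. Array centring moved each median by -0.04, and other treatment of repeated spots by at most -0.03. The largest median that changed sign under any of these or with the mean was 0.18 (copper and zinc). With thresholds of 1.5 and 2 on the log2 scale, 102 and 28 genes were higher and 146 and 72 lower. The scaling of both arrays gave medians of 0.42 for large-subunit and 0.39 for small-subunit ribosomal proteins and 0.59 for mating genes. The mean in place of the median was -0.23 for copper and zinc genes, whose median was 0.18, and -0.70 for thiamine, vitamin B6 and biotin genes. Counts of higher and lower genes were 302 and 434 after subtraction of the median of genes of like length, an alternative chosen after seeing the data, 335 and 423 after array centring, 427 and 473 after scaling, and 315 and 438 after block centring. No paired analysis was possible because each condition had 1 array. With no replicates no array could be left out, and with no intensities no limit from signal over background could be set.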
